A study of Mus musculus with 50 samples.

Results

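The genes described here are the 10 mouse genes of polyamine synthesis and catabolism that were chosen by symbol, without use of their values. They are Odc1, Amd1, Srm and Sms of the synthesis pathway, Azin1, Oaz1 and Oaz2 that regulate it, and Sat1, Smox and Paox of catabolism. Each symbol matched 1 Ensembl identifier among the 21647 in the count table, and all 10 were among the 13294 genes with enough counts to be tested.

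Polyamines are small positively charged molecules that bind nucleic acids and that dividing cells need for growth and translation. Ornithine is decarboxylated to putrescine, and aminopropyl groups from decarboxylated S-adenosylmethionine are then added to give spermidine and spermine. Acetylation and oxidation turn the longer polyamines back into the shorter ones, and spermidine is also the donor of the hypusine residue of the translation factor eIF5A. T cells are known to increase polyamine synthesis once their antigen receptor is engaged.

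The samples were CD8+ T cells taken with anti-CD8a beads from the spleens of 10-week-old knockout mice (KO) and WT mice, all labelled with the strain background C567BL/6J. The cells were activated in culture on plate-bound anti-CD3e with soluble anti-CD28, and poly(A) RNA was sequenced from naive cells (0h) and from cells activated for 2h, 6h, 12h and 24h. There were 5 mice per genotype, each mouse was sampled at all 5 times, and the 50 libraries held between 9571625 and 31293872 counts (median 23548632). Levels are given in CPM, a gene's count scaled to a common library total, with library sizes adjusted by the TMM method. Changes are log2 fold changes with their standard error (SE) from edgeR's quasi-likelihood test, and a gene was called changed when its p, adjusted by the Benjamini-Hochberg method over all tested genes, was under 0.05.

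The libraries of WT mice 1 and 4 stood apart from the other 40. The summed level of 5 immature thymocyte genes (Rag1, Rag2, Dntt, Ptcra and Arpp21) at 0h ran from 8.37 to 75.0 CPM in KO mice. WT mice 1 and 4 had sums of 1150 to 1530 CPM, and the 3 other WT mice, in which Rag2 was at 0, had 8.79 to 32.1 CPM. The summed level of 6 genes of G2 and mitosis (such as Mki67 and Top2a) at 0h ran from 205 to 787 CPM in KO mice, with sums of 3490 to 4330 CPM for WT mice 1 and 4 and of 91.0 to 136 CPM for the other WT animals. The thymocyte sum at 24h was at most 1.01 CPM in KO mice, 32.9 to 172 CPM for WT mice 1 and 4 and at most 1.32 CPM for the rest of the WT mice. All 8 CD8 T cell genes listed (such as Cd3e and Cd8a) were detected in every group, with sums at 0h of 5750 to 8030 CPM in KO mice, 3720 to 4160 CPM for WT mice 1 and 4 and 7390 to 18900 CPM for the others. At 12h the erythroid sum was at most 1.48 CPM in KO mice, 58.4 to 67.4 CPM for WT mice 1 and 4 and at most 1.5 CPM for the others. The myeloid sum at 24h was at most 10.9 CPM in KO mice, 29.3 to 108 CPM for WT mice 1 and 4 and at most 6.02 CPM for the others. These differences varied with time. At 0h the myeloid sums overlapped (17.3 to 58.7 CPM in KO mice, 14.8 to 28.0 CPM for WT mice 1 and 4 and 10.3 to 59.3 CPM for the others). At 12h the CD8 T cell sum was 2970 to 3500, 3870 to 3900 and 3300 to 3620 CPM in the same order. At 24h the mitosis sum was 2530 to 2830, 1720 to 2180 and 2570 to 2860 CPM. The B cell sum at 0h was 68.2 to 325 CPM in KO mice, 6.63 to 10.8 CPM for WT mice 1 and 4 and 30.4 to 223 CPM for the others. The 0h library of WT mouse 3 also held 23.8% of its counts in its 50 most abundant genes, the largest share among the libraries. Many results below are therefore given with and without WT mice 1 and 4, and the part of these marker differences in the results was not tested. In such bulk libraries, fewer cells of a type and less RNA per cell cannot be told apart.

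Of the 10 genes, 7 were called changed in KO cells at 2h, against 39.9% of all tested genes. Of these, 5 were higher (20.3% of all genes) and 2 lower (19.6%). At 6h 7 were called (49.2% of all genes), 6 higher (26.8%) and 1 lower (22.4%). At 12h 6 were called (52.8%), 5 higher (27.8%) and 1 lower (25.0%), and at 24h 7 were called (58.7%), 6 higher (30.7%) and 1 lower (28.0%). The median change of the 10 genes in KO cells was 0.80, 1.01, 0.64 and 1.04 at 2h, 6h, 12h and 24h, beside medians over all tested genes between -0.08 and 0.02. In WT cells 6 of the 10 were called at 2h (30.2% of all genes), 5 higher (14.0%) and 1 lower (16.2%). At 6h 5 were called (39.9%), all higher (20.2% higher and 19.7% lower over all genes), and at 12h 6 were called (39.4%), also all higher (19.3% and 20.2%). At 24h 6 were called in WT cells (44.1%), 5 higher (19.9%) and 1 lower (24.2%).

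WT counts depended on the mice and libraries used. Without WT mice 1 and 4 the WT calls were 7, 10, 10 and 8 at 2h, 6h, 12h and 24h, against 49.4%, 59.4%, 59.8% and 64.1% of all genes. In fits of only the 2 times compared, which keep all 5 WT mice but estimate the spread from 10 libraries, 0, 1, 1 and 2 of the 10 genes were called by edgeR (5 with an unadjusted p under 0.05 at 2h), against 1.82%, 8.78%, 9.79% and 19.2% of all genes. The calls that these small fits share with the fit of all libraries were Odc1 at 6h, 12h and 24h and Srm at 24h. The later times within a genotype share the same 0h libraries, so the calls at different times are not independent.

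**Figure D1:**
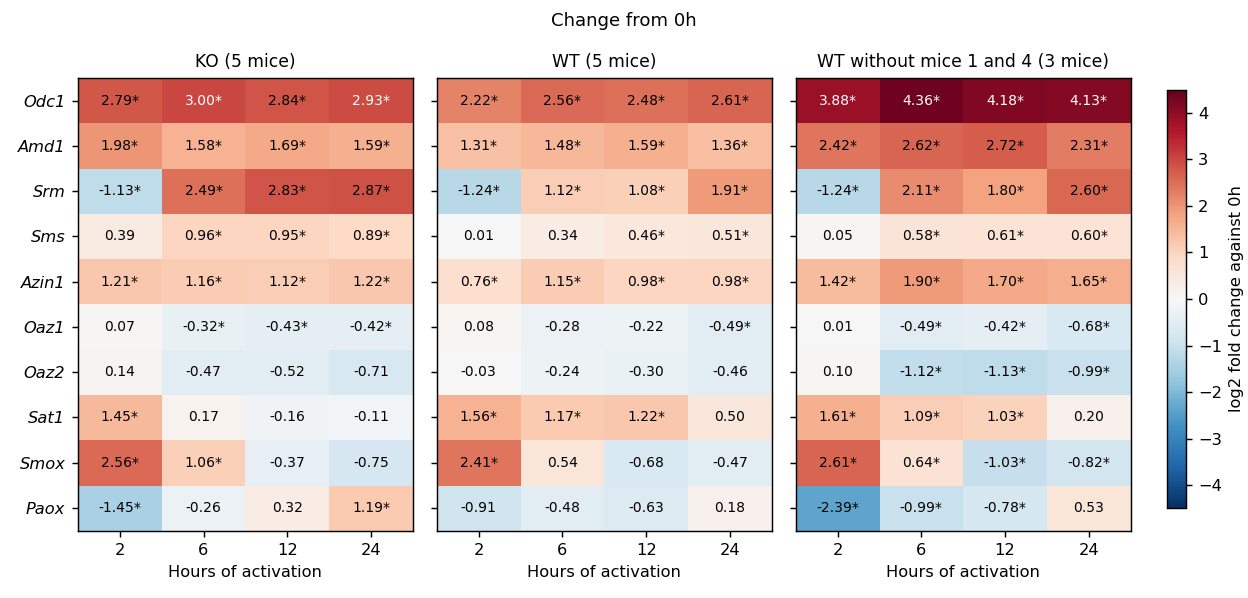
Log2 fold change of each gene from 0h at 2h, 6h, 12h and 24h (columns) in KO mice, in all WT mice and in WT mice 2, 3 and 5, with an asterisk for an adjusted p under 0.05. Odc1 stands between 2.79 and 3.00 in KO mice and between 2.22 and 2.61 in all WT mice, and Srm is below 0 at 2h and above 0 at the later times in each panel.

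Odc1 encodes ornithine decarboxylase, the enzyme that makes putrescine and is usually taken as the rate-limiting step of the pathway. It lies at chr12:17544794-17551505 on the plus strand of GRCm38, and 42.2% of the 50-base windows of its transcripts recur in other genes, such as the predicted gene Gm7993. It stood in KO mice 1 to 5 at 25.8, 26.4, 29.9, 40.2 and 47.7 CPM at 0h, and at 146, 297, 104, 250 and 378 CPM at 2h. At 6h the same mice had 195, 289, 234, 312 and 330 CPM, and at 24h 231, 289, 223, 275 and 275 CPM. Every KO mouse was higher at each of these times than any KO mouse at 0h, and the mice lay widest apart at 2h. The rise in KO cells was 2.79 at 2h (SE 0.445, edgeR adjusted p = 2.55e-06, higher in 5 of 5 mice), 3.00 at 6h, 2.84 at 12h and 2.93 at 24h, and the values at the later times lay within 1 SE of that at 2h.

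Odc1 in WT mice 1 to 5 stood at 95.9, 18.6, 18.8, 86.4 and 19.3 CPM at 0h, and at 110, 231, 348, 163 and 260 CPM at 2h. At 6h these mice had 72.8, 369, 409, 163 and 399 CPM, and at 24h 146, 321, 333, 320 and 341 CPM. WT mice 1 and 4 were the 2 highest at 0h and the 2 lowest at every later time, and the 6h level of mouse 1 was below its own 0h level. The WT rise was 2.22 at 2h (SE 0.434, edgeR adjusted p = 0.000121) and 2.61 at 24h. Without WT mice 1 and 4 it was 3.88 at 2h (SE 0.303), 4.36 at 6h and 4.13 at 24h.

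Amd1 encodes S-adenosylmethionine decarboxylase, which supplies the aminopropyl groups, and lies at chr10:40287458-40302186 on the minus strand. KO mice 1 to 5 had 10.8, 12.2, 8.32, 12.5 and 17.1 CPM at 0h and 51.3, 37.9, 42.6, 40.9 and 68.0 CPM at 2h. At 24h all 5 KO mice lay between 35.4 and 39.3 CPM, well clear of the 0h values. The rise in KO cells was 1.98 at 2h (SE 0.377, edgeR adjusted p = 4.39e-05) and 1.59 at 24h. Its WT values in mice 1 to 5 were 21.5, 8.76, 2.41, 20.6 and 11 CPM at 0h, and 13.3, 36.7, 43.5, 23.8 and 43.2 CPM at 2h. As for Odc1, WT mice 1 and 4 were the highest before activation and the lowest after it, and mouse 3 was lowest at 0h. The WT rise was 1.31 at 2h (edgeR adjusted p = 0.00571) and lost its call without WT mouse 3 (0.97, adjusted p = 0.0505), while without mice 1 and 4 it was 2.42 and stayed between 2.31 and 2.72 at the later times. Of the 50-base windows of Amd1 transcripts, 86.0% also occur in transcripts of other genes, among them Amd2 and Amd pseudogenes, so its absolute level depends on how such reads were counted.

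Srm encodes spermidine synthase, which turns putrescine into spermidine, and lies at chr4:148591503-148594993 on the plus strand. In KO mice 1 to 5 it stood at 56.8, 65.4, 106, 86.5 and 98.0 CPM at 0h and at 24.6, 48.1, 33.8, 44.0 and 38.2 CPM at 2h, with no overlap. At 6h the same mice had 470, 511, 511, 492 and 333 CPM, and at 12h 617, 522, 602, 602 and 600 CPM. Srm was thus below its 0h level at 2h in every KO mouse and far above it from 6h on. The change in KO cells was -1.13 at 2h (SE 0.378, edgeR adjusted p = 0.015), 2.49 at 6h (SE 0.393), 2.83 at 12h and 2.87 at 24h. The fall at 2h kept its sign but lost its call without KO mouse 3 (-0.98, adjusted p = 0.0889) or KO mouse 5 (-1.06, adjusted p = 0.0614), whereas without WT mice 1 and 4 its adjusted p was 2.7e-05.

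Srm in WT mice 1 to 5 stood at 192, 57.7, 162, 169 and 56.5 CPM at 0h and at 92.1, 28.4, 55.0, 58.8 and 35.1 CPM at 2h, lower at 2h in each of the 5 animals. At 6h these mice had 46.8, 405, 448, 145 and 341 CPM, and at 12h 103, 298, 398, 247 and 296 CPM. Mice 1 and 4 were lowest at both of these times, and neither had passed its own 0h level at 6h. The WT change was -1.24 at 2h (SE 0.378, edgeR adjusted p = 0.0105), 1.12 at 6h, 1.08 at 12h and 1.91 at 24h. The calls at 6h and 12h were lost without any of WT mice 2, 3 or 5 (0.76 to 0.98 at 6h and 0.84 to 1.00 at 12h), and without mice 1 and 4 together the changes were 2.11 and 1.8, both called.

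Sms encodes spermine synthase, which extends spermidine to spermine, and lies at chrX:157443855-157492287 on the minus strand. It moved less than the other synthesis genes, and 28.1% of its windows recur elsewhere, Sms-ps included. In KO mice it lay between 27.8 and 32.6 CPM at 0h, between 48.4 and 66.4 CPM at 6h and between 53.0 and 60.0 CPM at 24h, without overlap. The KO rise was 0.96 at 6h (SE 0.191, edgeR adjusted p = 6.22e-05) and 0.89 at 24h, and the value at 2h, 0.39, missed the threshold (adjusted p = 0.0962). It was called with mouse as a block (0.38, adjusted p = 0.0202), without WT mice 1 and 4 (0.37, adjusted p = 0.00844), in a fit of only the KO libraries compared (0.44, adjusted p = 0.0102), and without WT mouse 1 (0.36, adjusted p = 0.0465) or WT mouse 3 (0.45, adjusted p = 0.0399). In WT mice Sms lay between 31.4 and 58.7 CPM at 0h and between 39.7 and 64.4 CPM at 24h, with mouse 3 highest at 0h and mice 1 and 4 lowest at 24h. The WT rise was 0.46 at 12h (edgeR adjusted p = 0.048) and 0.51 at 24h (adjusted p = 0.0278), and both calls were lost when single WT mice were left out (0.30 to 0.46 at 12h and 0.37 to 0.48 at 24h without mouse 2, 4 or 5). Leaving out any KO mouse also ended the 12h call, at 0.45 or 0.46. Without WT mice 1 and 4 together, edgeR called the WT rise at 6h (0.58, adjusted p = 0.00148), 12h (0.61, adjusted p = 0.000868) and 24h (0.60, adjusted p = 0.000945). With mouse as a block it was called at 12h (0.42, adjusted p = 0.0126) and 24h (0.49, adjusted p = 0.00336) but not at 6h (0.28, adjusted p = 0.0944).

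**Figure D2:**
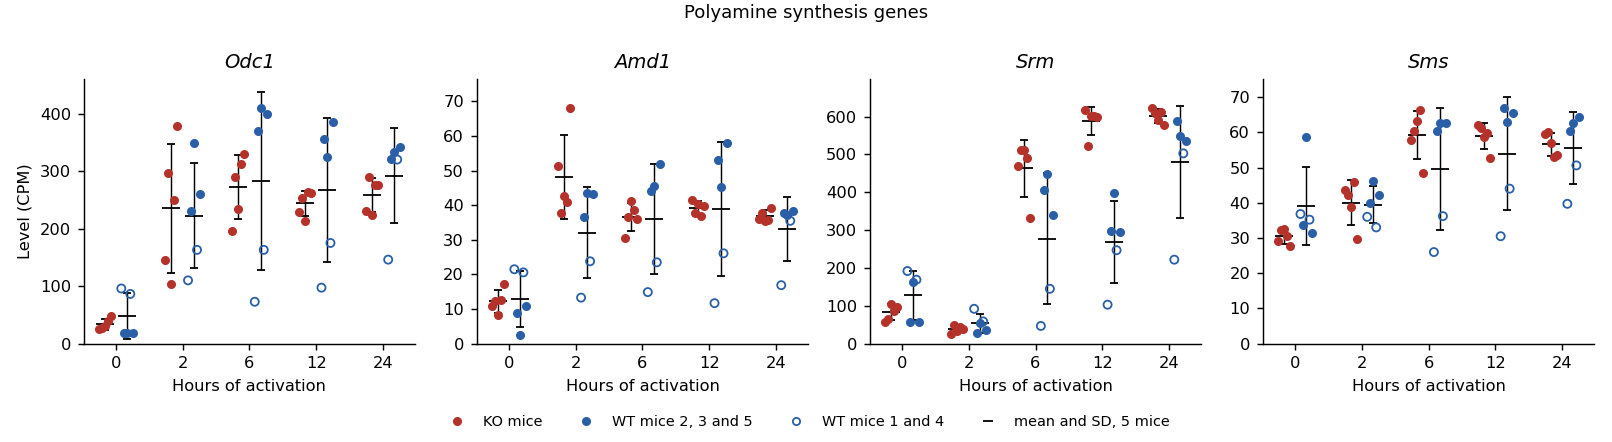
Levels of Odc1, Amd1, Srm and Sms in CPM (linear axis from 0) against hours of activation, with KO mice left of WT mice at each time, 1 point per mouse, open circles for WT mice 1 and 4, and bars for the mean and SD over 5 mice. Srm lies between 522 and 617 CPM in the KO mice at 12h and between 103 and 398 CPM in the WT mice.

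Promoter sequences are shown for Odc1 and Amd1, which rose at 2h and stayed high, and for Sat1, a catabolic gene with another course, which in KO cells was higher at 2h but not later. They are the bases upstream of the annotated gene start in RefSeq's windows of build GRCm38.p6, 5′ to 3′ on the gene's strand. The Odc1 sequence is chr12:17544623-17544793 (plus strand), the Amd1 sequence is chr10:40302189-40302438 (minus strand) and the Sat1 sequence is chrX:155216450-155216699 (minus strand). Capitals mark the GC box GGGCGG on either strand (CCGCCC in reverse) and the letters TATAA on either strand (TTATA in reverse).
Odc1: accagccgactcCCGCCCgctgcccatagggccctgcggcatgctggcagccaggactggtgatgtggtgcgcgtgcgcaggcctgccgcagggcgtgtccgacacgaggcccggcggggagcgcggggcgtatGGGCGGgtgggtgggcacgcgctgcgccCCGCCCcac
Amd1: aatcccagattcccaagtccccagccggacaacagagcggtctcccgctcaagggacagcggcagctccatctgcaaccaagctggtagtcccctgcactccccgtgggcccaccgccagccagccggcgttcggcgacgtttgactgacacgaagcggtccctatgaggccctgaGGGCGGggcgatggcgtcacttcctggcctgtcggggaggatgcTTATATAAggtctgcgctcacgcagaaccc
Sat1: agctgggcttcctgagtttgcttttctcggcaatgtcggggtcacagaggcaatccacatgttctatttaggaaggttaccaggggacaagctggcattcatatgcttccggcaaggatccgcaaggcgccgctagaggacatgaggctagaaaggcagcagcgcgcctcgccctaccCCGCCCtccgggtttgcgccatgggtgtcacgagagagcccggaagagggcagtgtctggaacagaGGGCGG
The Odc1 stretch holds 3 GC boxes, the Sat1 stretch 2 and the Amd1 stretch 1, and the Amd1 stretch also holds 2 overlapping TATAA matches. RefSeq windows (250 bases before to 50 after the start) were given for 8 of the 10 genes, and Srm and Azin1 had none. A GC box was found in at least 1 window of 7 of the 8 genes, beside 35.7% of 32851 windows of all genes, and TATAA in 2 (Amd1 and Oaz1), beside 24.9%. The counts for the 8 are per gene and the shares over all are per window, so they are not on the same footing. The E-box CACGTG occurred in 1 of the 8 (Sms), beside 7.15% of all windows. TGANTCA (AP-1, 7.81% of all windows), TGACGTCA (CRE, 1.79%) and GCGNGGGCG (Egr, 5.55%), each searched on both strands, were in no window of these 8 genes.

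Azin1 encodes the antizyme inhibitor, an inactive relative of ornithine decarboxylase that binds antizyme and so spares the enzyme, and lies at chr15:38487427-38519266 on the minus strand. It rose early and stayed level. In KO mice it lay between 119 and 155 CPM at 0h, between 258 and 343 CPM at 2h and between 293 and 313 CPM at 24h, without overlap. The KO rise was 1.21 at 2h (SE 0.224, edgeR adjusted p = 2.83e-05) and 1.22 at 24h. WT mice 1 to 5 held Azin1 at 220, 119, 33.9, 198 and 124 CPM at 0h and at 190, 270, 194, 242 and 284 CPM at 2h. Mouse 3 was lowest at 0h, and mouse 1 was lower at 2h than at 0h. The WT rise was 0.76 at 2h (edgeR adjusted p = 0.00725), losing its call without WT mouse 2 (0.66, adjusted p = 0.0532) or mouse 5 (0.65, adjusted p = 0.0537), and 1.42 without mice 1 and 4. The antisense gene Gm49077 overlaps Azin1, and the strand setting of the counts is not given in the sources used here.

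Oaz1 and Oaz2 encode antizymes, which bind ornithine decarboxylase and target it for degradation, and whose translation is raised by polyamines through a frameshift. Oaz1 (chr10:80826656-80829290, plus strand) was slightly lower in KO cells from 6h on. It stood in KO mice 1 to 5 at 53.1, 60.5, 81.3, 52.9 and 52.2 CPM at 0h and at 44.5, 48.0, 42.8, 44.3 and 44.0 CPM at 24h. The groups did not overlap, and mouse 3 stood out at 0h. The KO change was -0.32 at 6h (SE 0.137, edgeR adjusted p = 0.0465), -0.43 at 12h and -0.42 at 24h (adjusted p = 0.00793). Without KO mouse 3 these were -0.21, -0.30 and -0.26 and none was called (adjusted p = 0.278, 0.105 and 0.148), and the 6h call was also lost without any other KO mouse (-0.34 to -0.38) or WT mouse 5 (-0.33). In WT cells Oaz1 fell by 0.49 on the log2 scale at 24h (adjusted p = 0.00326). Its 24h values (44.8 to 52.0 CPM) lay below all 0h values (53.1 to 111 CPM, highest in mouse 3). At 6h and 12h the WT changes were -0.28 (adjusted p = 0.105) and -0.22 (adjusted p = 0.195). Without WT mice 1 and 4 they were -0.49 (adjusted p = 0.0162) and -0.42 (adjusted p = 0.0378), and the 24h change was -0.68. In that fit WT mouse 3 went from 111 CPM at 0h to 53.0 CPM at 6h and 48.3 CPM at 12h. Mouse 2 had 53.1, 57.0 and 63.2 CPM and mouse 5 had 59.6, 49.9 and 61.4 CPM at 0h, 6h and 12h. The 6h and 12h calls thus leaned on the 0h library of mouse 3. Adding the mouse block to that fit ended the 12h call (-0.38, adjusted p = 0.0596). Single left-out mice gave -0.41 to -0.03, -0.35 to 0.07 and -0.62 to -0.27 at 6h, 12h and 24h, and the 24h call held. Of the 50-base windows of Oaz1 transcripts 45.5% recur in Oaz1-ps, a pseudogene.

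Oaz2 (chr9:65668001-65690300, plus strand) was the scarcer antizyme per length. KO mice 1 to 5 had 9.89, 10.4, 12.7, 9.56 and 8.68 CPM at 0h and 5.13, 6.88, 6.69, 6.14 and 6.52 CPM at 24h. Every KO mouse was lower at 24h than any was at 0h, yet the change of -0.71 (SE 0.348) was not called in the fit of all 50 libraries (edgeR adjusted p = 0.0771). Without WT mice 1 and 4 it was -0.70 with an adjusted p of 0.000314, and with mouse as a block it was -0.70 with an adjusted p of 0.0114. At 6h and 12h the KO change was -0.47 and -0.52 with all libraries, neither called. Without WT mice 1 and 4 both were called, at -0.49 (adjusted p = 0.00866) and -0.53 (adjusted p = 0.00496). Oaz2 in WT mice 1 to 5 stood at 16.7, 11.2, 19.2, 14.8 and 10.1 CPM at 0h and at 24.3, 6.85, 5.81, 17.8 and 6.03 CPM at 6h. Mice 1 and 4 were higher at 6h than at 0h and the other 3 were lower. The WT change at 6h was -0.24 (adjusted p = 0.628) with all mice and -1.12 (adjusted p = 2.97e-05) without mice 1 and 4. At 12h it was -0.30 (adjusted p = 0.514) with all mice and -1.13 (adjusted p = 2.47e-05) without mice 1 and 4. At 24h it was -0.46 (adjusted p = 0.292), -0.62 with mouse as a block (adjusted p = 0.0289) and -0.99 without mice 1 and 4 (adjusted p = 0.000136).

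**Figure D3:**
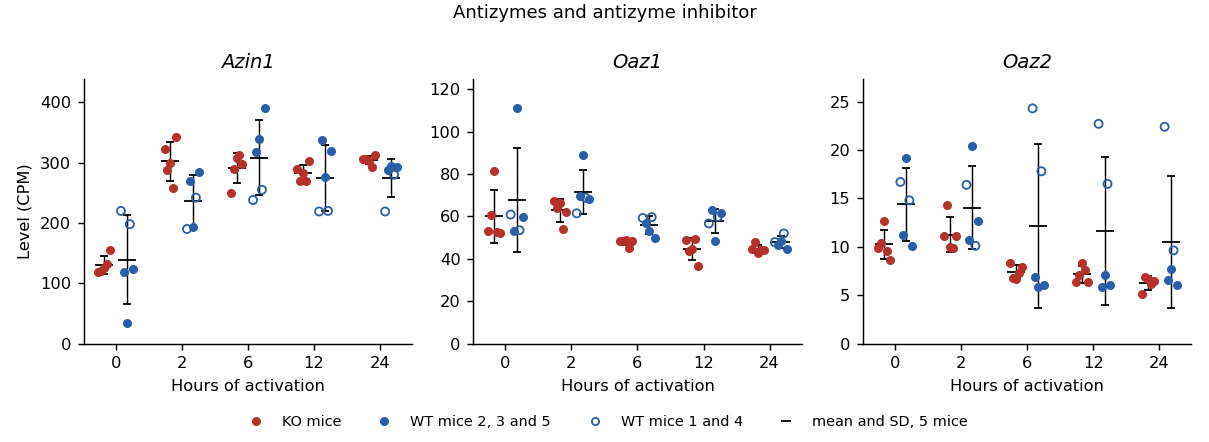
Levels of Azin1, Oaz1 and Oaz2 in CPM (linear axis from 0) against hours of activation, drawn with KO mice left of WT mice, 1 point per mouse, open circles for WT mice 1 and 4, and bars for the mean and SD over 5 mice. Oaz2 in WT mouse 1 stays between 22.4 and 24.3 CPM from 6h to 24h, above all KO mice.

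Sat1 encodes spermidine/spermine N1-acetyltransferase, which acetylates polyamines for export or oxidation, and lies at chrX:155213132-155216449 on the minus strand. In KO mice 1 to 5 it stood at 63.4, 65.2, 79.5, 61.3 and 46.4 CPM at 0h and at 236, 167, 185, 140 and 131 CPM at 2h. At 6h they had 69.5, 71.8, 72.1, 68.1 and 74.7 CPM, and at 12h 57.9, 58.7, 59.7, 54.8 and 52.1 CPM. All KO mice were high at 2h alone, and their 6h, 12h and 24h values overlapped those at 0h. The KO change was 1.45 at 2h (SE 0.387, edgeR adjusted p = 0.00256) and 0.17 at 6h (adjusted p = 0.72), and the step between 2h and 6h was -1.27 (adjusted p = 0.00637).

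Sat1 in WT mice 1 to 5 stood at 12.1, 53.3, 42.5, 18.3 and 63.9 CPM at 0h and at 18, 165, 168, 50.8 and 158 CPM at 2h. At 6h they had 33.5, 108, 106, 50.4 and 130 CPM, and at 12h 43.7, 115, 93.4, 59.1 and 131 CPM. Mice 1 and 4 were the lowest at each of these times, and the other 3 stayed above every 0h value through 12h. The WT change was 1.56 at 2h (SE 0.389, edgeR adjusted p = 0.00194), 1.17 at 6h, 1.22 at 12h and 0.50 at 24h (adjusted p = 0.292, or 0.80 and 0.00188 with mouse as a block). The 6h call was lost without WT mouse 3 (1.07, adjusted p = 0.0642), and without mice 1 and 4 the changes were 1.61, 1.09, 1.03 and 0.20.

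Smox encodes spermine oxidase, which turns spermine directly into spermidine, and lies at chr2:131491496-131525922 on the plus strand. It stood in KO mice 1 to 5 at 12.7, 11.3, 12.2, 9.52 and 8.06 CPM at 0h and at 70.2, 78.0, 57.9, 65.1 and 45.5 CPM at 2h. At 6h the same mice lay between 20.9 and 24.4 CPM, and at 24h between 5.51 and 7.13 CPM. The KO groups at 2h and 6h lay wholly above 0h and the group at 24h wholly below it. The KO change was 2.56 at 2h (SE 0.446, edgeR adjusted p = 1.15e-05) and 1.06 at 6h (adjusted p = 0.0373), and the 6h call was lost without any KO mouse (0.98 to 1.08) or WT mouse 2 (1.05). On unscaled library totals the 6h change was 0.89 (adjusted p = 0.0644). It was called with mouse as a block (1.07, adjusted p = 0.00777) and without WT mice 1 and 4 (1.03, adjusted p = 1.16e-06). A fit of only the KO libraries compared called it too (1.03, adjusted p = 5.11e-05). At 24h the KO change was -0.75 (adjusted p = 0.131) with all libraries and -0.74 (adjusted p = 0.000173) without WT mice 1 and 4. At 12h it was -0.37 (adjusted p = 0.48) and -0.38 (adjusted p = 0.0403) in the same order.

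Smox in WT mice 1 to 5 stood at 4.78, 11.9, 14.7, 6.41 and 13.0 CPM at 0h and at 4.09, 60.8, 106, 22.3 and 77.2 CPM at 2h. Mouse 1 did not rise and mouse 4 rose least. The WT change at 2h was 2.41 (SE 0.444, edgeR adjusted p = 4.93e-05) with all mice and 2.61 without mice 1 and 4. At 12h it was -0.68 (adjusted p = 0.212) with all mice and -1.03 (adjusted p = 9.08e-05) without those 2. The WT changes at 6h and 24h were 0.54 and -0.47 with all mice, neither called. Without mice 1 and 4 both were called, at 0.64 (adjusted p = 0.00873) and -0.82 (adjusted p = 0.000988).

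Paox encodes the peroxisomal N1-acetylpolyamine oxidase, which acts on the products of the Sat1 enzyme, and lies at chr7:140115799-140137224 on the plus strand, where the antisense gene Echs1 overlaps it. Per length it was the scarcest of the 10 at 0h. Its levels in KO mice 1 to 5 were 4.11, 4.19, 3.04, 5.24 and 5.26 CPM at 0h, 1.39, 1.42, 1.82, 1.31 and 2.03 CPM at 2h, and 8.17, 11.1, 12.2, 9.32 and 9.27 CPM at 24h. The 3 groups did not overlap. The KO change was -1.45 at 2h (SE 0.438, edgeR adjusted p = 0.00709) and 1.19 at 24h (SE 0.43, adjusted p = 0.0163), the 24h call being lost without KO mouse 2 (1.15, adjusted p = 0.0566) or mouse 3 (1.02, adjusted p = 0.0838). Paox and Srm were thus the 2 genes that were lower at 2h and higher at 24h in KO cells.

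Paox in WT mice 1 to 5 stood at 13.9, 7.40, 10.5, 11.5 and 5.72 CPM at 0h and at 12.1, 1.75, 0.427, 9.56 and 2.06 CPM at 2h. Mice 1 and 4 stayed high at 2h and the other 3 were low. The WT change at 2h was -0.91 (SE 0.427, edgeR adjusted p = 0.105) with all mice, -1.27 (adjusted p = 0.00298) with mouse as a block, and -2.39 (SE 0.302, adjusted p = 5.19e-08) without mice 1 and 4. At 6h and 12h the WT changes were -0.48 and -0.63 with all mice, neither called. Without mice 1 and 4 both were called, at -0.99 (adjusted p = 0.00294) and -0.78 (adjusted p = 0.0173).

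**Figure D4:**
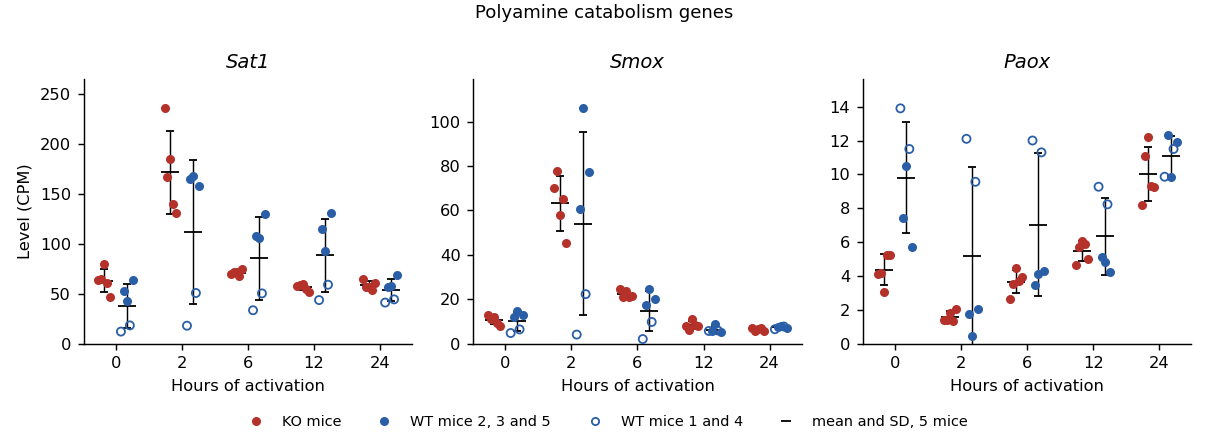
Levels of Sat1, Smox and Paox in CPM (linear axis from 0) against hours of activation, with KO mice left of WT mice, 1 point per mouse, open circles for WT mice 1 and 4, and bars for the mean and SD over 5 mice. Sat1 in KO mice peaks at 2h (131 to 236 CPM), while in WT mice 2, 3 and 5 it is still between 93.4 and 131 CPM at 12h.

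Between 2h and 6h, 6 of the 10 genes were called in KO cells (43.2% of all tested genes), 3 higher (24.2%) and 3 lower (19.0%). In WT cells 3 were called (29.3%), 1 higher (16.1%) and 2 lower (13.2%). In KO cells Srm (3.62, edgeR adjusted p = 2.9e-09), Sms (0.56) and Paox (1.19) were higher at 6h than at 2h, and Sat1 (-1.27), Smox (-1.50) and Oaz1 (-0.39) were lower, and Oaz2 was also called with mouse as a block (-0.60, adjusted p = 0.0372). In WT cells Srm (2.36, adjusted p = 1.15e-05) was higher, and Smox (-1.87) and Oaz1 (-0.36) were lower. Without WT mice 1 and 4 these WT values were 3.34, -1.98 and -0.50, and Oaz2 (-1.22, adjusted p = 1.06e-05, against -0.21 with all mice), Sat1 (-0.52, adjusted p = 0.00889), Sms (0.53, adjusted p = 0.00369) and Paox (1.4, adjusted p = 0.000152, against 0.43) were called as well. Several of these calls were lost when 1 mouse was left out: Sms in KO cells without KO mouse 3 (0.52, adjusted p = 0.0734) or 4 (0.53, adjusted p = 0.0663), and at the threshold without KO mouse 2 (0.57, adjusted p = 0.05), Oaz1 in KO cells without KO mouse 1 (-0.39) or 2 (-0.40), Paox without KO mouse 1, 2, 3 or 4 (1.08 to 1.23), and Oaz1 in WT cells without KO mouse 1, 2, 4 or 5 or WT mouse 2 or 5 (-0.38 to -0.34).

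From 6h to 12h edgeR called 0 of the 10 in KO cells (1 with an unadjusted p under 0.05, 0 by limma-voom, 1 by DESeq2), against 2.86% of all genes, and 0 in WT cells (1 unadjusted, 0 by limma-voom, 0 by DESeq2), against 0.609%. From 12h to 24h it called 0 in KO cells (1 unadjusted, 0 by limma-voom, 0 by DESeq2), against 10.0%, and 0 in WT cells (1 unadjusted, 0 by limma-voom, 0 by DESeq2), against 15.1%. The gene nearest to a call was Smox at 12h against 6h in KO cells, at -1.42 (adjusted p = 0.0574), which was called with mouse as a block (-1.43, adjusted p = 0.00769) and without WT mice 1 and 4 (-1.41, adjusted p = 6.47e-08). Sat1 (-0.56, adjusted p = 0.0449) and Paox (0.99, adjusted p = 0.0218) were called between 12h and 24h in WT cells with mouse as a block. Without WT mice 1 and 4 Paox was also higher at 24h than at 12h, by 0.89 in KO cells (adjusted p = 0.0016) and by 1.31 in WT cells (adjusted p = 0.000408). Paox was also higher at 12h than at 6h in KO cells in that fit (0.59, adjusted p = 0.0455). In the same fit Smox was lower at 12h than at 6h in WT cells (-1.67, adjusted p = 6.78e-07), and in WT cells at 24h Srm was higher (0.80, adjusted p = 0.0225) and Sat1 lower (-0.83, adjusted p = 0.000162) than at 12h.

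Levels of different genes are compared per length, as RPKM, the CPM divided by the exon length in kilobases. The SDs below cover the spread among mice only. They do not cover reads shared with other genes, which leave the rank of genes such as Amd1 (86.0% of windows shared), Oaz1 (45.5%) and Odc1 (42.2%) uncertain. In KO cells at 0h Srm was highest, at 51.6 ± 13.1 RPKM (SD, n = 5). Oaz1 (23.5 ± 4.84), Sat1 (22.8 ± 4.25) and Azin1 (20.9 ± 2.32) followed within their spread of each other, then Odc1 (9.99 ± 2.82) and Sms (5.07 ± 0.347). Amd1 (3.44 ± 0.903), Oaz2 (3.43 ± 0.508) and Smox (2.76 ± 0.495) again lay within their spread, and Paox was lowest at 0.89 ± 0.189 RPKM. In KO cells at 24h the order began with Srm at 377 ± 11.1 RPKM, Odc1 at 76.0 ± 8.76 and Azin1 at 48.6 ± 1.15, each apart from the next by more than the SDs. Oaz2 (2.10 ± 0.233), Paox (2.04 ± 0.326) and Smox (1.64 ± 0.182) were lowest at 24h, and Oaz2 and Paox did not differ beyond their spread. In WT cells at 24h Srm was also highest, at 300 ± 92.2 RPKM, followed by Odc1 at 85.8 ± 24.1 and Azin1 at 43.9 ± 5.09.

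KO and WT cells were next compared at each time, the comparison the 2 genotypes imply. At 0h edgeR called 0 of the 10 genes (1 with an unadjusted p under 0.05, 0 by limma-voom, 1 by DESeq2), against 7.93% of all tested genes. At 2h it called 1, against 11.8%, at 6h 0 (2 unadjusted, 0 by limma-voom, 0 by DESeq2), against 10.1%, at 12h 1, against 13.1%, and at 24h 0 (1 unadjusted, 0 by limma-voom, 0 by DESeq2), against 0.0451%. Leaving out WT mice 1 and 4, it called 4 at 0h (22.4% of all genes), 0 at 2h (4.02%, 2 of the 10 unadjusted), 1 at 6h (4.13%), 2 at 12h (22.8%) and 0 at 24h (0.0451%, 0 of the 10 unadjusted). At 2h limma-voom with mouse as a random effect called Sat1 (1.06, adjusted p = 0.0445), and at 12h Oaz1 was called on unscaled totals (-0.46, adjusted p = 0.0133) and in a fit of only the 10 libraries compared (-0.36, adjusted p = 0.0306), against -0.38 and an adjusted p of 0.0585 in the fit of all libraries. With all mice, 0 or 1 of 10 at each time is near the share of all genes called.

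Srm at 12h was the difference called both with and without WT mice 1 and 4. It stood at 617, 522, 602, 602 and 600 CPM in KO mice 1 to 5, against 103, 298, 398, 247 and 296 CPM in WT mice 1 to 5, and the lowest KO mouse was above the highest WT mouse. The difference was 1.13 (SE 0.376, edgeR adjusted p = 0.0404), 1.15 in a fit of only these 10 libraries, where it was called too, and 0.87 without WT mice 1 and 4 (adjusted p = 0.0126). It missed the threshold when any KO mouse, WT mouse 4 or WT mouse 5 was left out (1.10 to 1.17, adjusted p from 0.0512 to 0.0986), with no filter on low counts (1.16, adjusted p = 0.0507), and in limma-voom with mouse as a random effect (1.25, adjusted p = 0.067). At 24h Srm stood at 578 to 622 CPM in KO mice and at 222 to 588 CPM in WT mice, and the difference was 0.33 (adjusted p = 1.00).

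Paox at 2h was the other call with all mice. This gene stood at 1.39, 1.42, 1.82, 1.31 and 2.03 CPM in KO mice 1 to 5, against 12.1, 1.75, 0.427, 9.56 and 2.06 CPM in WT mice 1 to 5, so WT mice 1 and 4 were high and the other WT mice overlapped the KO mice. The difference was -1.71 (SE 0.44, edgeR adjusted p = 0.0146) with all mice and 0.08 (SE 0.272, adjusted p = 0.922) without WT mice 1 and 4. It was also lost without WT mouse 1 (-1.11, adjusted p = 0.112), WT mouse 4 (-1.37, adjusted p = 0.102), KO mouse 1 (-1.65), KO mouse 2 (-1.66) or KO mouse 4 (-1.63), in a fit of only these 10 libraries (-1.66, adjusted p = 0.227) and in limma-voom (-1.11, adjusted p = 0.173).

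Set against WT mice 2, 3 and 5 alone, Odc1 at 0h was higher in KO mice, with 25.8 to 47.7 CPM and at most 19.3 CPM in those WT animals (0.85, SE 0.253, edgeR adjusted p = 0.0162). With all mice the same difference was -0.49 (adjusted p = 0.459). Amd1 at 0h was called higher in KO mice without WT mice 1 and 4 (0.68, adjusted p = 0.0347) and was -0.08 with them. Unlike for Odc1, the groups overlapped, with 8.32 to 17.1 CPM in KO mice. WT mice 2, 3 and 5 had 8.76, 2.41 and 11.0 CPM of Amd1, and mouse 3, with 25 counts, was the only one below the KO mice. Sms (-0.43, adjusted p = 0.0209) and Paox (-0.84, adjusted p = 0.0145) were lower in KO mice at 0h without WT mice 1 and 4. The Sms groups overlapped, with 27.8 to 32.6 CPM in KO mice. WT mice 2, 3 and 5 had 33.7, 58.7 and 31.4 CPM of Sms, so mouse 3 stood apart. Sat1 was lower in KO mice at 6h (-0.70, SE 0.145, adjusted p = 0.00425) and at 12h (-0.95, SE 0.145, adjusted p = 3.09e-05) without WT mice 1 and 4. KO mice held 52.1 to 59.7 CPM of Sat1 at 12h, and WT mice 2, 3 and 5 held 93.4 to 131 CPM. With all mice the Sat1 differences were -0.26 (adjusted p = 0.687) and -0.64 (adjusted p = 0.267).

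**Figure D5:**
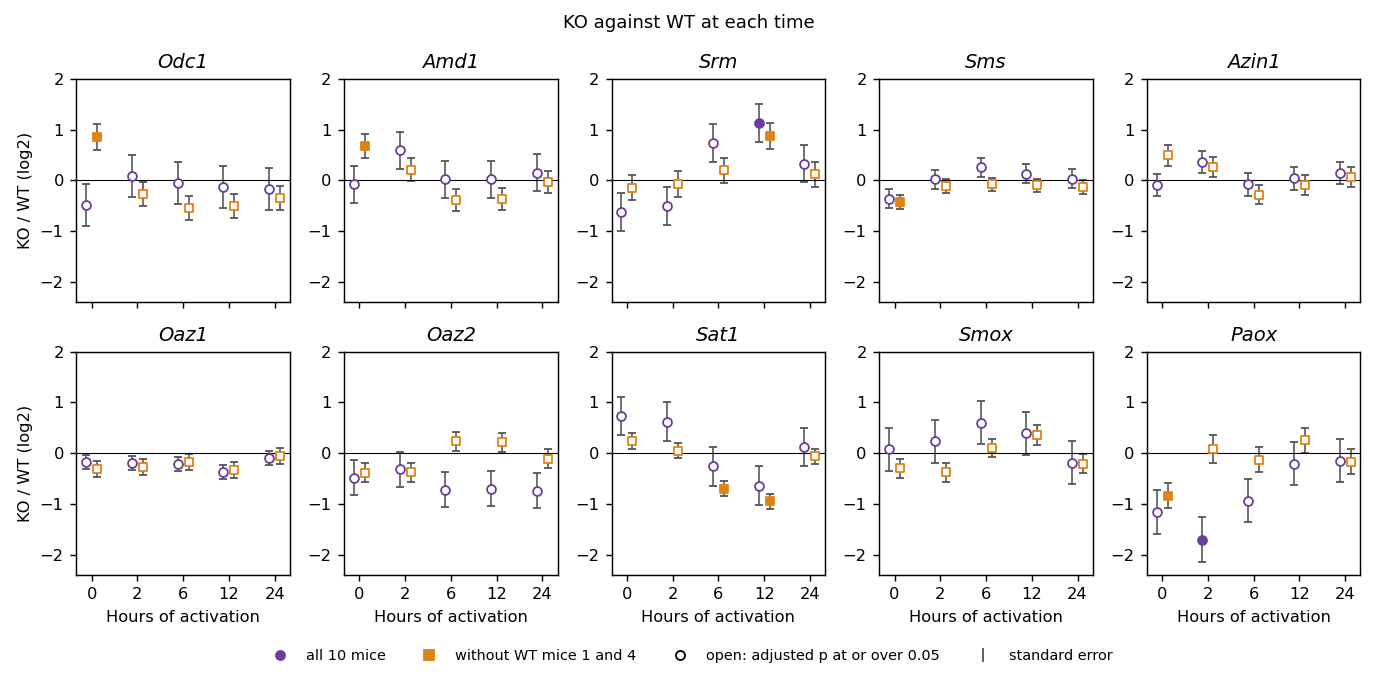
Log2 ratio of KO over WT (vertical axis, points with standard error) for each gene at 0h, 2h, 6h, 12h and 24h, with all 10 mice (circles) and without WT mice 1 and 4 (squares), filled where the adjusted p was under 0.05. Paox at 2h stands at -1.71 with all mice and at 0.08 without those 2, and Srm at 12h is filled in both.

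The change from 0h was also compared between the genotypes, as the KO change minus the WT change. At 12h 1 of the 10 genes was called, against 7.5% of all tested genes. At 2h (0.015% of all genes), 6h (2.47%) and 24h (0.0752%) edgeR called 0 of the 10, with 0, 2 and 0 at an unadjusted p under 0.05, and limma-voom and DESeq2 each called 0 at these 3 times. The called gene was Srm, whose change from 0h at 12h was 2.83 in KO cells and 1.08 in WT cells, a difference of 1.76 (SE 0.53, adjusted p = 0.0319). This call was lost without any KO mouse or WT mouse 4 (1.62 to 1.86), in a fit of only the 4 groups involved (1.77, adjusted p = 0.0547), on unscaled library totals (1.55, adjusted p = 0.0533) and in limma-voom (1.72, adjusted p = 0.0627), and it was 1.02 without WT mice 1 and 4 (adjusted p = 0.0349).

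With mouse as a block within genotype the same comparison called 4 gene and time pairs: Srm at 12h (1.84), Sms at 6h (0.67, edgeR adjusted p = 0.0371), and Sat1 at 6h (-1.05, adjusted p = 0.0302) and 12h (-1.50, adjusted p = 0.000995). The Sms value was not called without WT mice 1 and 4, at 0.32 with the block (adjusted p = 0.225) and 0.35 without it (adjusted p = 0.254), nor with mouse as a random effect (0.63, adjusted p = 0.084). The block called 2 of the 10 genes at 6h and 2 at 12h, against 5.07% and 12.3% of all genes, and 0 at 2h (0.0301%, 0 of the 10 unadjusted) and 24h (0.752%, 2 of the 10 unadjusted). Leaving out WT mice 1 and 4, with no block, edgeR called 3 of the 10 genes at 6h (9.7% of all genes) and 5 at 12h (20.4%), and at 2h (0.256%, 2 of the 10 unadjusted) and 24h (1.01%, 2 of the 10 unadjusted) it called 0. Sat1 was -0.95 at 6h and -1.20 at 12h, so it stood less far above 0h in KO cells than in WT mice 2, 3 and 5, and with all mice and no block the values were -1.0 (adjusted p = 0.341) and -1.37 (adjusted p = 0.111). Odc1 was -1.39 at 6h (adjusted p = 0.0118) and -1.35 at 12h, and Amd1 was -1.06 at 6h and -1.05 at 12h, so both rose less over 0h in KO cells than in WT mice 2, 3 and 5. These values include the 0h differences of KO against WT, 0.85 for Odc1 and 0.68 for Amd1, both called. KO against WT itself was -0.55 and -0.39 at 6h and -0.50 and -0.37 at 12h, none called. For both genes all KO mice lay below those WT mice at 6h and 12h. The difference of changes of Paox was 1.09 at 12h. For Odc1 and Amd1 the sign depended on WT mice 1 and 4, since with all mice the Odc1 values were 0.44 and 0.36 and the Amd1 values 0.10 and 0.10, none of them called.

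Genes that use or feed the pathway were counted from 4 further lists. Of the 4 hypusination genes (Dhps, Dohh, Eif5a and Eif5a2), all 4 were higher at 6h, 12h and 24h than at 0h in KO cells, against 26.8%, 27.8% and 30.7% of all genes. In WT cells 4, 3 and 4 were higher, against 20.2%, 19.3% and 19.9%. Eif5a, the factor that carries hypusine, averaged 441 ± 77.3 CPM at 0h and 2280 ± 134 CPM at 12h in KO cells (SD, n = 5), and 734 ± 442 CPM at 0h and 1730 ± 553 CPM at 12h in WT cells. Its change at 12h was 2.37 in KO cells (edgeR adjusted p = 6.49e-08) and 1.24 in WT cells, or 2.23 in WT cells without mice 1 and 4. Dhps, deoxyhypusine synthase, changed by 1.17 in KO cells and 1.07 in WT cells at 12h. Dohh, deoxyhypusine hydroxylase, rose by 1.24 in KO cells and had 0.49 in WT cells at 12h (adjusted p = 0.0587, or 0.51 and 0.0344 with mouse as a block). The KO against WT values at 12h were 0.39 for Eif5a (adjusted p = 0.394), 0.10 for Dhps (adjusted p = 0.704) and 0.35 for Dohh (adjusted p = 0.266).

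Of 9 transport genes listed, 6 were tested, and in KO cells 3 were higher (30.7% of all genes) and 2 lower (28.0%) at 24h. In WT cells 1 was higher (19.9%) and 2 were lower (24.2%) at that time. Slc3a2, the heavy chain of amino acid transporters, also linked to polyamine transport, was 1.91 higher at 6h in KO cells (edgeR adjusted p = 2.34e-09) and 1.00 higher in WT cells. At 6h Slc3a2 averaged 522 ± 67.4 CPM in KO cells and 311 ± 151 CPM in WT cells (SD, n = 5), a difference of 0.75 (adjusted p = 0.0236) with all mice that was 0.32 (adjusted p = 0.202) without WT mice 1 and 4. Its call was also lost without any of KO mice 1 to 4 (0.70 to 0.72), WT mouse 1 (0.54) or WT mouse 4 (0.62). Atp13a3, a P-type ATPase of the polyamine transporter family, rose by 1.07 at 24h in KO cells (adjusted p = 0.000567) and had 0.35 in WT cells (adjusted p = 0.27), or 1.16 (adjusted p = 0.000569) without mice 1 and 4. Slc18b1, a vesicular polyamine transporter, was called lower at 24h in both genotypes but was scarce throughout, with at most 0.0416 CPM at 24h and 1.19 CPM at 0h in any KO library.

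Of 10 genes of the methionine cycle and methylthioadenosine salvage, 9 were tested. In KO cells 6 were higher (30.7% of all genes) and 1 lower (28.0%) at 24h, and in WT cells 5 were higher (19.9%) and 0 lower (24.2%). Mat2a, which makes S-adenosylmethionine, rose by 2.00 at 6h in KO cells (edgeR adjusted p = 7.19e-10) and by 1.52 in WT cells. Got1, an aminotransferase able to form methionine at the end of salvage, rose by 2.12 at 24h in KO cells and by 1.67 in WT cells. Enoph1, a salvage enzyme, rose by 1.38 at 24h in KO cells and by 0.98 in WT cells. Of 6 further polyamine enzymes and regulators, Oaz3 and Amd2 were the only 2 tested, both at low levels (at most 1.18 CPM for Oaz3 and 1.07 CPM for Amd2 in any library). Oaz3, a testis antizyme, had 0.81 at 6h in KO cells (edgeR adjusted p = 0.248), and Amd2, a near copy of Amd1, had 0.90 at 24h in KO cells (adjusted p = 0.231).

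The genes most like Odc1, Srm and Sat1 in their course were found by the root mean square difference of centred log2 CPM over the 10 group means, among 9507 genes with at least 5 CPM on average. For Odc1 they were Insig1 (0.275), Icos (0.309) and Nab2 (0.318), against a median of 1.18 over the genes compared. For Srm they were Thop1 (0.183), Ybx3 (0.191) and Pfas (0.254), against a median of 1.45. For Sat1 they were Irf1 (0.217), Zc3h11a (0.222) and Mfsd4a (0.234), against a median of 0.766. Without WT mice 1 and 4 the lists became Rel, Rasgef1b and Marcksl1 for Odc1, Thop1, Pfas and Ydjc for Srm, and Tbc1d15, Mysm1 and Selenok for Sat1, so Thop1 and Pfas were the 2 genes that appeared in both.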

How the data were processed

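The authors deposited raw counts per gene for 50 libraries of mouse splenic CD8+ T cells, and per the submitters' processing notes CASAVA 1.8.2, STAR 2.4, featureCounts 1.4.6 and build GRCm38 were used. Libraries were 50-nt single-end stranded poly(A) libraries, per the labels' protocols. The annotation, the strand setting and the handling of reads with several matches are not given in the sources used here.

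Counts were mapped to symbols, exon lengths and positions of GENCODE M21, which matched 21583 of 21647 identifiers. Genes were filtered with filterByExpr by group (minimum count 10, minimum total 15). With edgeR 4.0.16 (R 4.3.3), 1 mean per genotype and time was estimated from all 50 libraries in a quasi-likelihood model with robust dispersion and TMM scaling (common dispersion 0.214, 40 residual degrees of freedom). The code was also run on simulated counts, with independent libraries and a smaller dispersion than in these data. That run cannot tell how well the fit suits these data. Calls used a Benjamini-Hochberg adjusted p under 0.05. CPM and RPKM were computed from the counts, RPKM over the union of exons. Alternatives were a mouse block, limma-voom 3.58.1, DESeq2 1.42.0, unscaled totals, no filter and left-out mice. The genes described and the further lists were chosen with earlier results of these data known, among them that WT mice 1 and 4 stand apart. Every gene of the pathway is named, and up to 3 per further list with the smallest p over the KO changes from 0h. That choice used KO values only, so for the further lists it may favour large KO changes beside the WT ones. Of the profile matches, the 3 closest genes with a standard symbol and at least 5 CPM are named. The shared windows are 50-base stretches of protein-coding transcripts of a gene found in another gene's transcripts.

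Per the labels, libraries with the same mouse number within a genotype come from the same animal. Their deviations from the group means correlated by 0.076 to 0.421 on average in KO mice and by 0.317 to 0.783 in WT mice, per pair of times. Mouse numbers do not pair animals across genotypes. The fit without the block treats libraries of 1 mouse as independent, so its p-values may be too small or too large for changes over time. Whether the counts bear out the genotype labels is not reported here, and 1 gene was taken out of a marker list after the sums had been seen and is not reported.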

Additional observations from a re-analysis of the deposited data

Results flagged for a closer look

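In 13 of 100 groups of 5 mice, 1 mouse lay far from the other 4 by Dixon's test, which flags about 1 group in 20 by chance. WT mouse 1 at 24h accounted for 5 of them. Its Odc1 was 146 CPM (320 to 341 CPM in the other WT mice), its Amd1 16.9 CPM (35.5 to 38.4), its Srm 222 CPM (503 to 588), its Azin1 219 CPM (280 to 295) and its Oaz2 22.4 CPM (6.10 to 9.63). This mouse is also 1 of the 2 WT mice with high thymocyte genes.

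WT mouse 3 at 0h stood out for Sms, at 58.7 CPM (31.4 to 36.8 CPM in the others), and for Oaz1, at 111 CPM (53.1 to 60.9). At 12h its Smox was 8.88 CPM (5.36 to 5.95). Among KO mice, mouse 3 at 0h had 81.3 CPM of Oaz1 (52.2 to 60.5), mouse 5 at 6h 333 CPM of Srm (470 to 511), mouse 2 at 12h 522 CPM of Srm (600 to 617), mouse 4 at 6h 45.3 CPM of Oaz1 (48.3 to 48.8) and mouse 2 at 2h 14.3 CPM of Oaz2 (9.86 to 11.1).

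The change of Srm from 0h at 12h differed between the genotypes by 1.76 (edgeR adjusted p = 0.0319). All 5 KO mice were higher at 12h than at 0h, and so were WT mice 2, 3, 4 and 5, while WT mouse 1 was lower.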

How the results depend on the processing

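Of 27 calls over time in KO cells, other settings gave 25 to 33 and single left-out mice 21 to 30. The 23 calls over time in WT cells became 35 without WT mice 1 and 4 and 4 in fits of only the groups compared, with 18 to 28 when 1 mouse was left out. Calls between successive times numbered 6 in KO cells, and 10 without WT mice 1 and 4, 12 without them and with the mouse block, and 15 in fits of only the groups compared. In WT cells they numbered 3, and 11 without WT mice 1 and 4, 5 with the mouse block, 13 with both, and 2 to 6 when 1 mouse was left out. Of 50 comparisons of KO with WT cells 2 were called, and 7 without WT mice 1 and 4, 1 with mouse as a random effect (Sat1 at 2h), 1 with no filter, 1 by limma-voom and 0 to 5 when 1 mouse was left out. Of 40 differences of changes 1 was called, and 8 without WT mice 1 and 4, 4 with the mouse block, 12 with both, 2 with mouse as a random effect, 0 in fits of only the groups compared, 0 by limma-voom and 0 to 2 when 1 mouse was left out.

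Among KO against WT values called in either fit, leaving out WT mice 1 and 4 turned the sign of 3: Odc1 at 0h (0.85, against -0.49 with all mice), Amd1 at 0h (0.68, against -0.08) and Paox at 2h (0.08, against -1.71). It also turned differences of changes that were then called, given first without and then with the mouse block: Odc1 at 6h (-1.39 and -1.38) and 12h (-1.35 and -1.31), and Amd1 at 6h (-1.06 and -1.09) and 12h (-1.05 and -1.07). Odc1 at 2h (-1.17 with the block) and 24h (-1.17 with it) and Azin1 at 6h (-0.86 with it) were also below 0 without those mice, and were called only with the block (-1.11, -1.20 and -0.78 without it). For Azin1, WT mice 2, 3 and 5 had 119, 33.9 and 124 CPM at 0h and 318, 340 and 390 CPM at 6h. Signs of values called in neither fit turned too, such as Oaz2 KO against WT at 6h (0.23, against -0.72 with all mice). The cause was not tested. With all mice, the mouse block was tried on 202 values, ended no call and added 13, all given above. Of 263 values, DESeq2 kept 258 on their side of the threshold, unscaled totals 255, limma-voom 255 and no filter 259. Unscaled totals moved the median change of all genes at 2h in KO cells to -0.25, against -0.08 with TMM.

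Low levels limit Paox, Oaz2 and Smox most, and 5 mice per genotype, 2 of which stand apart in WT, limit each WT value. Amd1 was also low in 1 library, with 25 counts in WT mouse 3 at 0h. KO and WT fits share 1 estimate of the spread, which WT mice 1 and 4 widen. Shared or antisense sequence leaves the levels of Amd1, Oaz1, Odc1, Sms, Azin1 and Paox uncertain.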
